A study of Rattus norvegicus with 20 samples.

Results

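Beta cell disallowed genes are genes that most tissues express and mature beta cells keep low. The 10 examined here are Ldha, Slc16a1, Acot7, Hk1, Hk2, Pdgfra, Cxcl12, Oat, Smad3 and Ndrg2. They are a written list, chosen with earlier results of these data known. All 10 had a probe set with a gene symbol, among 14217 genes measured, and each was read from its brightest probe set over all arrays. None of the 10 changed by the test in any of 4 comparisons, and their values overlapped between the groups in each of them.

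The samples were pancreatic islets of male Wistar rats aged 8 weeks, with 1 Affymetrix rat array for each of 20 samples. There were 4 groups of 5: islets with an adenovirus for Nr4a1, with one for Nr4a3, with one for green fluorescent protein (GFP), and islets left untreated. All were cultured in medium with 8 mM glucose and 10% serum, and virus was present for 18 h with collection 48 h after its addition. The titles and characteristics give these groups, but the labels' treatment text speaks of β-galactosidase and Nkx6.1 viruses, a conflict that the sources used here do not settle. The titles call the replicates biological, but which animals gave each sample is not stated. The p-values therefore measure the spread between these samples, and whether that is a spread between animals is not known. The promoter that drives each delivered gene is not given either.

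In a mature beta cell, most glucose carbon is sent to the mitochondria, and little of it leaves as lactate. Low lactate dehydrogenase A (Ldha) and monocarboxylate transporter 1 (Slc16a1) keep circulating lactate and pyruvate from provoking insulin secretion, and low Hk1 and Hk2 keep high-affinity hexokinases from answering low glucose. Return of such genes, with loss of beta cell transcription factors, is a sign used to describe dedifferentiation. Nr4a1 and Nr4a3 are orphan nuclear receptors, transcription factors that bind a site called the NBRE. An islet also holds other endocrine cells, endothelial cells, stellate cells and leukocytes, and exocrine cells can remain after isolation. In RNA of whole islets, fewer cells of a type and less RNA per cell cannot be told apart, and a disallowed gene's signal includes these other cells.

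The promoters of Ldha and Slc16a1 are shown because this enzyme and this transporter form the lactate route, and because they were the members whose windows held the palindrome CACGTG, an E-box. The sequences are from RefSeq on GRCr8, plus strand, 5′ to 3′, and cover the 250 bases before a transcription start, with the E-box in capitals. The Ldha stretch is chr1:106507842-106508091, and the Slc16a1 stretch is chr2:194812410-194812659, at a start inside the gene's annotated span.
Ldha: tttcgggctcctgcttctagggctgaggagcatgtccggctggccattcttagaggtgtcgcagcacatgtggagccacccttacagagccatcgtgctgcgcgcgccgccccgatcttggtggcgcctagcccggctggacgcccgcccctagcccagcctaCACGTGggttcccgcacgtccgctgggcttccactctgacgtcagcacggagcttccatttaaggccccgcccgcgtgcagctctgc
Slc16a1: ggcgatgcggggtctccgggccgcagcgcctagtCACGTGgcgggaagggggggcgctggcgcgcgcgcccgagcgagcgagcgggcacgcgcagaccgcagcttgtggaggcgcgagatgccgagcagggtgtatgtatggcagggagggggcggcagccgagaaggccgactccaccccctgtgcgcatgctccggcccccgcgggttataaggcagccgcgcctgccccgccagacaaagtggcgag
The E-box begins 87 bases before the start in Ldha and 216 bases before it in Slc16a1. Windows of 300 bases, from 250 before to 50 after a start, were searched on both strands, and 13 such windows covered the 10 members. CACGTG was in 2 of the 13, against 6.42% of 33469 rat windows. The NBRE letters AAAGGTCA, or TGACCTTT on the other strand, were in 0 of the 13 windows, against 1.43% of all windows. A match is a description of the letters, and its absence says only that these letters are not in the window.

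Some facts about the arrays bear on every result. Insulin 1 (Ins1) lay between 14.66 and 15.06 and insulin 2 (Ins2) between 14.49 and 14.85 log2 intensity on the 20 arrays, so the islet label was met. Probe sets of the 2 receptor genes gave no called change on the arrays labelled for them: Nr4a1 averaged 5.99 ± 0.12 on Nr4a1-labelled arrays against 6.07 ± 0.09 on GFP arrays, and Nr4a3 averaged 5.82 ± 0.19 on Nr4a3-labelled arrays against 5.63 ± 0.17 on GFP arrays (SD, n = 5 each). Neither difference passed the test (limma adjusted p = 0.775 and 0.421), while Nr4a3, at 6.07 ± 0.13, rose by 0.44 on Nr4a1-labelled arrays against GFP arrays (limma adjusted p = 0.00562). Whether these probe sets lie within the delivered sequences is not given, so they check neither the labels nor delivery, and groups are called by their labels below. Replicate 2 of the Nr4a3-labelled arrays stood apart, with a mean correlation of 0.941 with the other arrays against 0.982 to 0.989 for the other 19, and an actin 3′ minus 5′ signal of 4.62 against 1.50 to 2.21 log2 units. Values without it are given below for many results, and not for all. The Gapdh 3′ minus 5′ signal, a sign of RNA quality, was 0.271 to 0.357 log2 units on Nr4a1-labelled and 0.409 to 2.06 on Nr4a3-labelled arrays, against 0.499 to 0.739 on GFP and 0.408 to 0.720 on untreated arrays, so the Nr4a1-labelled arrays lay below all others.

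The first question was whether the disallowed genes were higher after either nuclear receptor virus, the direction that dedifferentiation would take. In Nr4a1-labelled islets against GFP islets, 0 of 10 members passed an adjusted p under 0.05, beside 8.71% of all genes (6.16% higher and 2.55% lower). With no adjustment, 0 of 10 reached p under 0.05, beside 19.9% of all genes, and 0 of 10 had groups that did not overlap, beside 16.2% of all genes. The members' changes were positive for 6 and negative for 4, with a median of 0.17 log2 units, against -0.0013 over all genes. For 9 of 10 members the 95% interval of the change lay within 2-fold in both directions, the exception being Ldha. Without the Nr4a3-labelled array that stood apart, the members called stayed at 0 of 10 while the share of all genes called was 19.1%. One member then had an unadjusted p under 0.05, and the share of all genes at that level is not given here. Without replicate 1 of the Nr4a1-labelled arrays 742 genes instead of 1239 were called, again with 0 members.

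In Nr4a3-labelled islets against GFP islets, 0 of 10 members passed, beside 1.93% of all genes (1.75% higher and 0.176% lower). One member, Hk1, had an unadjusted p under 0.05, beside 12.8% of all genes, and 0 of 10 had groups that did not overlap, beside 4.63%. Changes were positive for 3 members and negative for 7, with a median of -0.009 against 0.0033 over all genes. Every one of the 10 intervals lay within 2-fold. Leaving out 1 array at a time gave 127 to 527 genes called instead of 274, the most without the array that stood apart, and 0 members each time. Both of these comparisons use the same 5 GFP arrays.

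Nr4a1-labelled and Nr4a3-labelled islets were also set against each other. Here 0 of 10 members passed, beside 0.633% of all genes (0.598% higher and 0.0352% lower), and 0 of 10 had groups that did not overlap, beside 2.66%. Smad3 alone had an unadjusted p under 0.05, beside 11.5% of all genes. The changes were positive for 9 of 10 members, Pdgfra being the other, with a median of 0.19 against -0.0027 over all genes. Without the array that stood apart, the median was 0.12, and Hk2 instead of Smad3 had an unadjusted p under 0.05. The share of all genes at that level without it is not given here.

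The virus itself was examined by setting GFP islets against untreated islets. No member passed, beside 0% of all genes, and no member had an unadjusted p under 0.05, beside 2.90%, or groups that did not overlap, beside 0.605%. Changes were positive for 5 members and negative for 5, between -0.16 for Pdgfra and 0.17 for Slc16a1, with a median of -0.013 against -0.017 over all genes. The intervals of all 10 members lay within 2-fold.

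**Figure D1:**
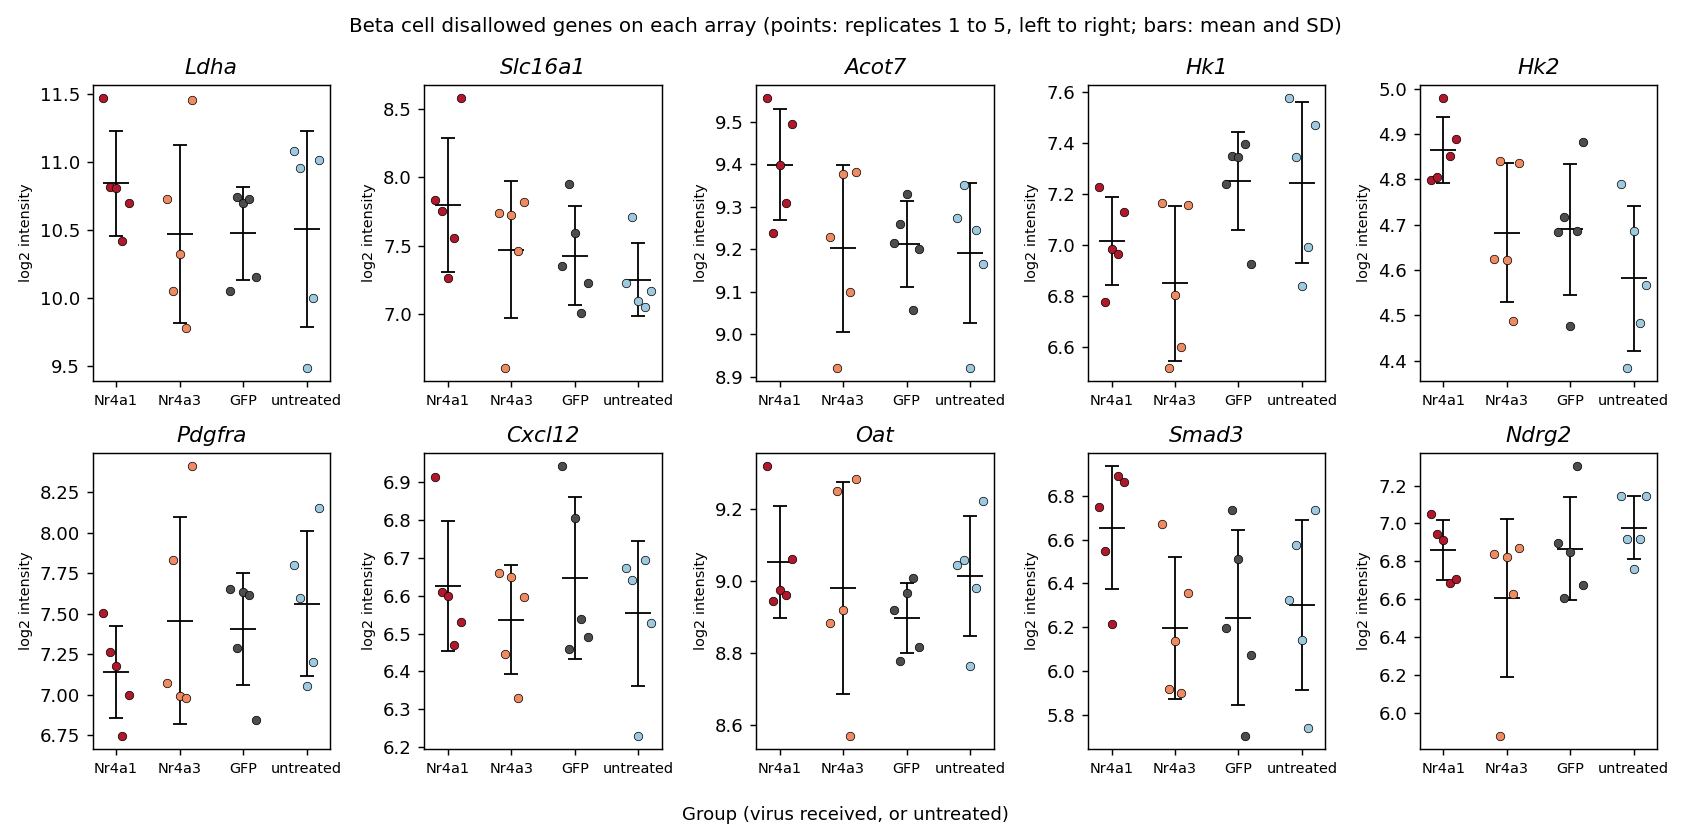
Log2 intensity of each of the 10 disallowed genes on each of 20 arrays, in 1 panel per gene, with Nr4a1-labelled, Nr4a3-labelled, GFP and untreated groups of 5 from left to right, points for arrays in replicate order and bars for the mean and SD. In each panel the groups overlap, and the spread within groups is widest for Ldha, Slc16a1 and Pdgfra.

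Lactate and pyruvate handling came first among the members. Ldha, which interconverts pyruvate and lactate (Entrez Gene 24533, chr1:106508092-106517512 on GRCr8), had log2 intensities of 11.47, 10.82, 10.81, 10.41 and 10.70 on Nr4a1-labelled arrays and 10.73, 10.05, 10.32, 9.78 and 11.46 on Nr4a3-labelled arrays. It had 10.05, 10.74, 10.70, 10.73 and 10.15 on GFP arrays and 11.08, 10.96, 9.48, 10.00 and 11.02 on untreated arrays. Untreated islets alone covered most of the range, and the lowest of the 20 values was an untreated array. The highest array exceeded the lowest 3.95-fold, while the group means differed by at most 0.37 log2 units, less than the within-group SD of 0.55. The change in Nr4a1-labelled against GFP islets was 0.37 ± 0.32 (SE), or 1.29-fold with a 95% interval of 0.813 to 2.04, at a limma adjusted p of 0.624. In Nr4a3-labelled against GFP islets it was -0.01 (adjusted p = 0.994).

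Slc16a1, the plasma membrane carrier of lactate and pyruvate (Entrez Gene 25027, chr2:194805556-194832966), gave 7.83, 7.75, 7.27, 7.56 and 8.58 on Nr4a1-labelled arrays and 7.74, 6.61, 7.73, 7.46 and 7.82 on Nr4a3-labelled arrays. It gave 7.35, 7.95, 7.59, 7.01 and 7.23 on GFP arrays and 7.22, 7.71, 7.09, 7.06 and 7.17 on untreated arrays. The Nr4a1-labelled group had the highest mean and the untreated group the lowest, and all 4 groups overlapped. The change in Nr4a1-labelled against GFP islets was 0.37 ± 0.24, or 1.29-fold (0.912 to 1.84), with an adjusted p of 0.451. Against Nr4a3-labelled islets it was 0.33, and 0.11 without the array that stood apart, which holds the lowest Slc16a1 value of all 20. A dimmer Slc16a1 probe set did not keep this order of groups. Its means were 5.36 in Nr4a1-labelled, 5.49 in Nr4a3-labelled, 5.32 in GFP and 5.52 in untreated islets.

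Hk1, a high-affinity hexokinase (Entrez Gene 25058, chr20:30773222-30874814), read 7.23, 6.78, 6.98, 6.97 and 7.13 on Nr4a1-labelled arrays and 7.17, 6.52, 6.81, 6.60 and 7.16 on Nr4a3-labelled arrays. It read 7.24, 7.35, 7.35, 7.40 and 6.93 on GFP arrays and 7.58, 7.35, 6.84, 6.99 and 7.47 on untreated arrays. Both nuclear receptor groups had means below those of the GFP and untreated groups, and the values overlapped. The change in Nr4a3-labelled against GFP islets was -0.40 ± 0.15, with a 95% interval from -0.72 to -0.08 and an adjusted p of 0.236. In Nr4a1-labelled against GFP islets the change was -0.23 ± 0.15 (adjusted p = 0.449). A dimmer Hk1 probe set did not follow it, with means of 5.80 in Nr4a1-labelled, 6.03 in Nr4a3-labelled, 5.88 in GFP and 5.91 in untreated islets, and averaging both probe sets left -0.13 for Nr4a3-labelled against GFP.

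Hk2, the other high-affinity hexokinase on the list (Entrez Gene 25059, chr4:116792258-116841275), had 4.80, 4.81, 4.98, 4.85 and 4.89 on Nr4a1-labelled arrays and 4.62, 4.84, 4.62, 4.49 and 4.84 on Nr4a3-labelled arrays. It had 4.68, 4.72, 4.48, 4.69 and 4.88 on GFP arrays and 4.79, 4.38, 4.69, 4.48 and 4.57 on untreated arrays. The Nr4a1-labelled values lay at the upper end of the others with little spread of their own. The change against GFP islets was 0.18 ± 0.09 (adjusted p = 0.302), and against Nr4a3-labelled islets 0.18 (adjusted p = 0.451), or 0.22 without the array that stood apart (adjusted p = 0.318). Detection calls were not used here, so whether this dim probe set was above background was not tested.

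Acot7, a thioesterase that cleaves fatty acyl-CoA (Entrez Gene 26759, chr5:167969284-168062033), averaged 9.40 ± 0.13 in Nr4a1-labelled, 9.20 ± 0.20 in Nr4a3-labelled, 9.21 ± 0.10 in GFP and 9.19 ± 0.17 in untreated islets (SD, n = 5 each). Its change in Nr4a1-labelled against GFP islets was 0.19 ± 0.10 (adjusted p = 0.312), with an interval from -0.02 to 0.39. A dimmer Acot7 probe set averaged 6.04, 6.16, 6.01 and 6.11 in the same order of groups. The enzyme Oat, ornithine aminotransferase of the mitochondrial matrix (Entrez Gene 64313, chr1:196777973-196797754), averaged 9.05 ± 0.16, 8.98 ± 0.29, 8.90 ± 0.10 and 9.01 ± 0.17 in the same order of groups. Its change against GFP was 0.16 ± 0.12 in Nr4a1-labelled islets (adjusted p = 0.558), beside -0.12 in GFP against untreated islets. The highest of 20 values exceeded the lowest 1.55-fold for Acot7 and 1.68-fold for Oat, a narrower spread than for Ldha or Slc16a1.

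Signalling members followed. Smad3, which carries TGF-beta signals to the nucleus (Entrez Gene 25631, chr8:73022204-73132324), had 6.75, 6.55, 6.21, 6.89 and 6.86 on Nr4a1-labelled arrays and 6.67, 5.92, 6.14, 5.90 and 6.36 on Nr4a3-labelled arrays. It had 6.20, 6.73, 6.51, 5.71 and 6.07 on GFP arrays and 6.32, 6.57, 6.14, 5.74 and 6.73 on untreated arrays. In Nr4a1-labelled islets 3 of 5 values were above every GFP and Nr4a3-labelled value, and the lowest was inside both groups. The change was 0.41 ± 0.21 against GFP islets, or 1.33-fold (0.986 to 1.79), with an adjusted p of 0.280, and 0.46 ± 0.21 against Nr4a3-labelled islets, with an interval from 0.03 to 0.89 and an adjusted p of 0.411. The dimmer Smad3 probe set had its lowest mean, 4.40, in Nr4a1-labelled islets, against 4.63 in Nr4a3-labelled, 4.51 in GFP and 4.58 in untreated islets.

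Pdgfra, a receptor for platelet-derived growth factor (Entrez Gene 25267, chr14:33360027-33408604), gave 7.50, 7.27, 7.18, 6.75 and 6.9998 on Nr4a1-labelled arrays and 7.07, 7.83, 6.99, 6.98 and 8.41 on Nr4a3-labelled arrays. It gave 7.65, 7.29, 7.63, 7.62 and 6.85 on GFP arrays and 7.80, 7.60, 7.05, 7.21 and 8.15 on untreated arrays. The Nr4a1-labelled group had the lowest mean, and single arrays of the Nr4a3-labelled and untreated groups were above 8. The change in Nr4a1-labelled against GFP islets was -0.27 ± 0.26 (adjusted p = 0.680). The related receptor Pdgfrb, which is on the stellate cell list and not a member, had a change of -0.47 ± 0.23 (adjusted p = 0.266), which passed without the array that stood apart (adjusted p = 0.0139).

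Cxcl12, a chemokine (Entrez Gene 24772, chr4:152060781-152073628), averaged 6.62 ± 0.17 in Nr4a1-labelled, 6.54 ± 0.14 in Nr4a3-labelled, 6.65 ± 0.21 in GFP and 6.55 ± 0.19 in untreated islets. The dimmer Cxcl12 probe sets averaged 5.56, 5.84, 5.90 and 6.15, and 4.90, 4.89, 5.08 and 5.09, in the same order. Averaging its probe sets gave a change of -0.18 in Nr4a1-labelled against GFP islets (adjusted p = 0.421), beside -0.02 from the brightest. The CXCL12 receptor gene Cxcr4 had a change of -0.48 ± 0.22 in Nr4a1-labelled against GFP islets (adjusted p = 0.222). Ndrg2, a member of the N-myc downstream-regulated family (Entrez Gene 171114, chr15:27074481-27087376), averaged 6.86 ± 0.16, 6.61 ± 0.42, 6.87 ± 0.27 and 6.98 ± 0.17 in the same order. The low Nr4a3-labelled mean came with a value of 5.88 on the array that stood apart, and the change against GFP was -0.26 with it and -0.08 without it. A dimmer Ndrg2 probe set had its highest mean, 5.35, in Nr4a3-labelled islets, against 5.13 in Nr4a1-labelled, 5.08 in GFP and 5.27 in untreated islets.

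**Figure D2:**
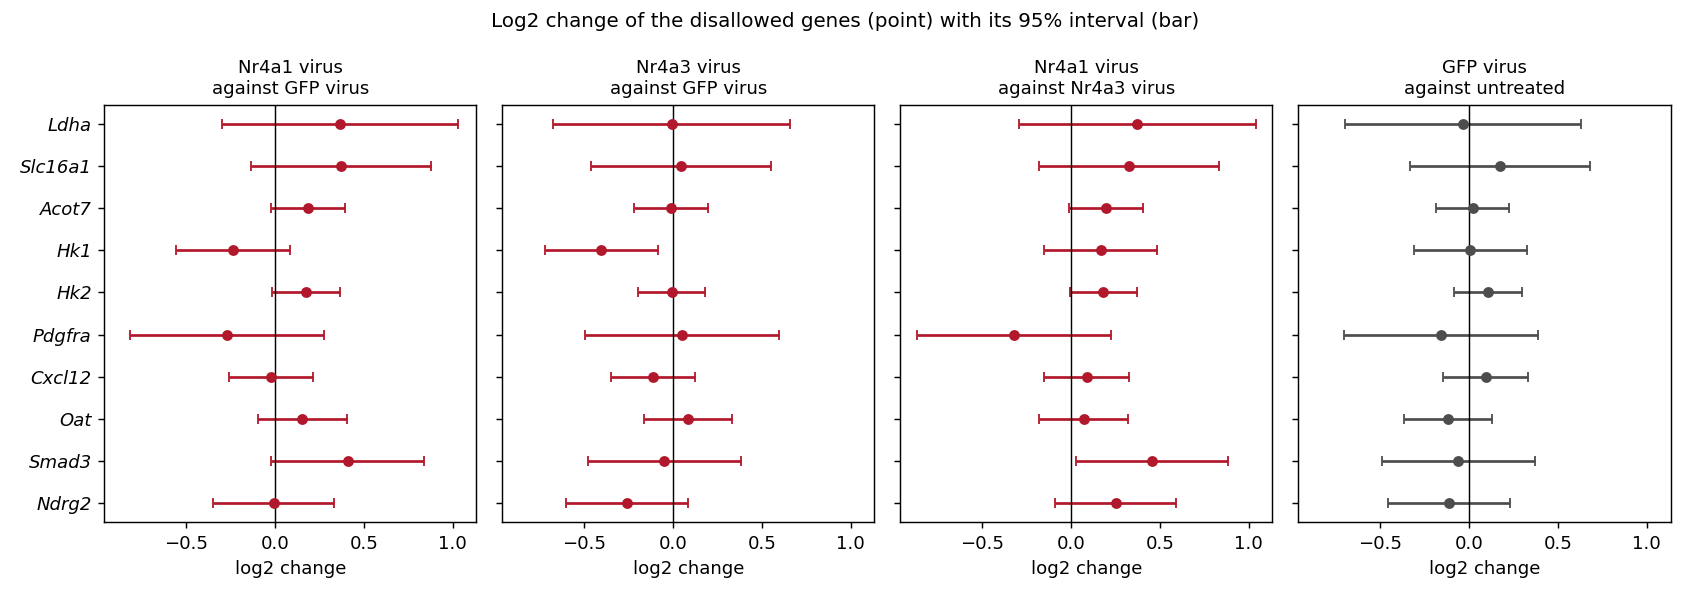
Log2 change of each of the 10 disallowed genes in each of 4 comparisons, the first-named group minus the second, as points with 95% intervals. The Hk1 interval in Nr4a3-labelled against GFP islets (-0.72 to -0.08) and the Smad3 interval in Nr4a1-labelled against Nr4a3-labelled islets (0.03 to 0.89) exclude 0, and neither gene passed after adjustment over all genes.

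Several members varied together from array to array within groups. Each array's deviation from its group mean was correlated over 20 arrays for 45 pairs of members and for 60 pairs of a member and the mean of a marker list, with 100000 permutations within groups and Benjamini-Hochberg adjustment over all 105. Of the member pairs, 7 had an adjusted p under 0.05 by Pearson's r and 5 by both r and Spearman's rho. Ldha and Hk1 correlated with r = 0.86 and rho = 0.85 (permutation test, adjusted p = 0.00289 and 0.00875), and r was 0.82 without the 2 farthest arrays. Pdgfra and Oat correlated with r = 0.82 and rho = 0.82 (permutation test, adjusted p = 0.00289 and 0.00919), and r was 0.81 without the 2 farthest arrays. Slc16a1 was related to Smad3 (r = 0.67, rho = 0.68, adjusted p = 0.0267 and 0.0258 by permutation test; r = 0.71 without the 2 farthest) and to Acot7 (r = 0.68, rho = 0.70, adjusted p = 0.0267 and 0.0198; r = 0.59). Hk1 and Ndrg2 made the fifth pair (r = 0.61, rho = 0.65, adjusted p = 0.0387 and 0.0313 by permutation test; r = 0.48). Ldha and Slc16a1, the enzyme and the carrier with an E-box in common, had r = 0.37.

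The same deviations were set against means of cell type marker lists. Smad3 varied with the duct cell list (r = 0.86, rho = 0.87, permutation test, adjusted p = 0.00289 and 0.0021; r = 0.83 without the 2 farthest arrays). Slc16a1 (r = 0.68, rho = 0.74, adjusted p = 0.00289 and 0.0021 by permutation test) and Ldha (r = 0.74, rho = 0.76, adjusted p = 0.0267 and 0.0198) also varied with the duct list. Stellate cell and fibroblast genes were related to Pdgfra by r and not by rho (r = 0.76, rho = 0.64, adjusted p = 0.0267 and 0.084 by permutation test), whose r was 0.92 without the array that stood apart. Hk1 varied with that list as well (r = 0.73, rho = 0.77, adjusted p = 0.0267 and 0.0198 by permutation test), while Ldha passed by r and not by rho (r = 0.74, rho = 0.64, adjusted p = 0.0267 and 0.0787 by permutation test). Pdgfra with the leukocyte list likewise passed by r alone (r = 0.64, rho = 0.53, adjusted p = 0.0387 and 0.127 by permutation test). Ndrg2 with the stellate list passed by rho alone (r = 0.68, rho = 0.72, adjusted p = 0.0707 and 0.0198 by permutation test). None of the 10 members had an adjusted p under 0.05 with the beta cell identity list over the 20 arrays. There r ran from -0.53 (Oat) to 0.66 (Ndrg2). Without the array that stood apart it ran from -0.64 (Smad3) to 0.19 (Hk2), and Slc16a1 went from 0.22 to -0.58. These values without that array were not tested.

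**Figure D3:**
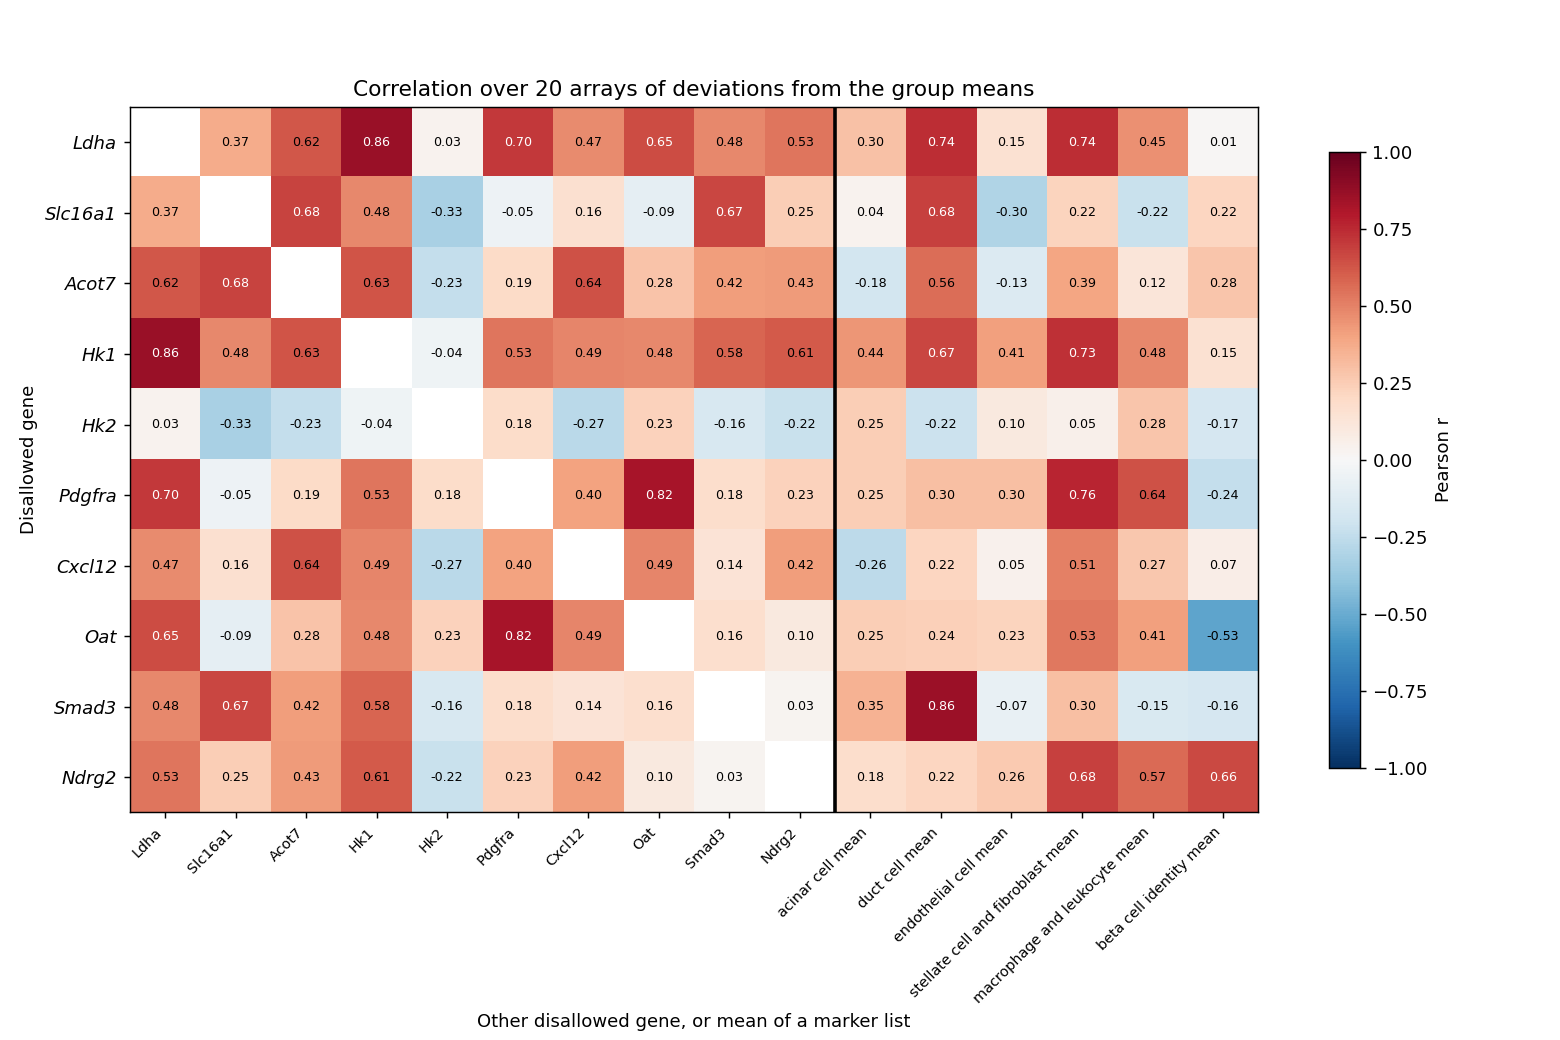
Pearson's r over 20 arrays between deviations from the group means, for the 10 disallowed genes in rows against the other members and the means of 6 marker lists in columns, red for positive and blue for negative values. The darkest cells are Ldha with Hk1 (0.86), Smad3 with the duct list (0.86) and Pdgfra with Oat (0.82).

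The levels of those lists in each group stand beside the members' values, and their part in the members' values was not tested. For the counts below, 8.71% of all genes passed in Nr4a1-labelled and 1.93% in Nr4a3-labelled islets against GFP. At an unadjusted p under 0.05 these shares were 19.9% and 12.8%. The duct list of 13 measured genes ranged from 9.03 to 9.28 on Nr4a1-labelled, 8.66 to 9.30 on Nr4a3-labelled, 8.53 to 9.21 on GFP and 8.55 to 9.31 on untreated arrays. In Nr4a1-labelled against GFP islets 1 of its genes rose, Car2, a carbonic anhydrase, by 2.21 log2 units (adjusted p = 3.8e-07), and it also rose in Nr4a3-labelled against GFP islets, by 1.59 (adjusted p = 0.000168). The duct count of 1 in Nr4a1-labelled islets became 3 without the Nr4a3-labelled array that stood apart, 2 higher and 1 lower, and 2 without replicate 2 of the GFP arrays or replicate 4 or 5 of the untreated arrays. The stellate list of 23 ranged from 8.87 to 9.37, 8.89 to 10.07, 9.12 to 9.77 and 9.22 to 10.04 in the same order, and none of its genes passed in Nr4a1-labelled against GFP islets, with 1 at an unadjusted p under 0.05, while 1 (Pdgfrb) passed without the array that stood apart. Over all alternatives the stellate count in that comparison ran from 0 to 4. Acinar cell genes, which make digestive enzymes, ranged from 9.54 to 10.80 on Nr4a1-labelled and 8.50 to 9.31 on Nr4a3-labelled arrays, against 6.81 to 9.08 on GFP and 6.88 to 10.05 on untreated arrays. In Nr4a1-labelled islets 19 of 22 acinar genes rose (median change 2.54 log2 units), among them Pnlip, pancreatic lipase, and in Nr4a3-labelled islets 1 of 22 rose (median 0.85), both against GFP. The gene in Nr4a3-labelled islets was Cuzd1 (adjusted p = 0.0416), which no longer passed under 14 of 27 alternative settings (adjusted p of 0.0524 to 0.134), among them leaving out replicate 1, 3 or 5 of the Nr4a3-labelled arrays, 3 or 5 of the Nr4a1-labelled arrays, 1, 2, 3 or 5 of the GFP arrays, or 2 or 4 of the untreated arrays, and the count ran from 0 to 5. Of 14 endothelial genes, 7 fell in Nr4a1-labelled and 2 in Nr4a3-labelled islets against GFP, Flt1 among them in both. The count in Nr4a1-labelled islets was 8 without the array that stood apart. It was 4 without replicate 1 or 2 of the Nr4a1-labelled arrays or replicate 1 or 4 of the GFP arrays. The other gene that fell in Nr4a3-labelled islets, Kdr, did not pass without the array that stood apart (adjusted p = 0.0532), where 3 endothelial genes fell, and the count was 1 without replicate 3 or 5 of the Nr4a3-labelled arrays or replicate 1, 2, 3 or 4 of the GFP arrays. No gene of the leukocyte list (21 measured) or of the other islet hormone list (11 measured) passed in either comparison, with 1 and 2 at an unadjusted p under 0.05 in Nr4a1-labelled islets and 0 and 0 in Nr4a3-labelled islets. The hormone list's count in Nr4a1-labelled islets was 1 without the array that stood apart or without replicate 3 of the Nr4a1-labelled arrays.

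The genes whose deviations were most like each member's over the 20 arrays are given as descriptions. For Ldha these were Col7a1 (r = 0.95) and Plod2 (r = 0.95), for Hk1 Kdelr3 (0.91) and Pdlim7 (0.89), and for Slc16a1 Wdr77 (0.90) and Tgif1 (0.89). Pdgfra was closest to Cmtm3 (0.93) and Lox (0.93), Oat to Depdc7 (0.92) and Htr2b (0.89), Smad3 to St14 (0.90) and Pvr (0.87), and Ndrg2 to Marchf2 (0.93) and Bmerb1 (0.92). The nearest genes were less alike for Acot7, with Cd14 (0.82) and Rhoc (0.81), for Hk2, with Kcnt1 (0.74) and Kcnv1 (0.73), and for Cxcl12, with Irf7 (0.68) and Isg15 (0.68). Without the array that stood apart a different gene came first for each member except Oat, such as Bnc2 (0.97) for Pdgfra and Dnajb1 (0.88) for Slc16a1. The r of Ndrg2 with Marchf2 was then 0.84 and that of Acot7 with Cd14 was 0.74, while Ldha kept 0.95 with Col7a1 and Pdgfra had 0.94 with Cmtm3.

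Genes around the members in their pathways were set beside the shares over all genes. In Nr4a1-labelled against GFP islets 8.71% of all genes passed and 19.9% had an unadjusted p under 0.05. In Nr4a3-labelled against GFP islets these shares were 1.93% and 12.8%. Of 16 measured genes on a longer list of disallowed genes, 0 rose and 0 fell in Nr4a1-labelled islets against GFP, with a median change of 0.0038 log2 units and 2 at an unadjusted p under 0.05, and 0 passed in Nr4a3-labelled islets, with 1 at an unadjusted p under 0.05. Cd302, a lectin receptor picked from that list after its values were seen, averaged 9.04 ± 1.25 in Nr4a1-labelled and 8.91 ± 1.38 in Nr4a3-labelled islets, against 7.39 ± 0.77 in GFP and 7.05 ± 0.54 in untreated islets. Its change in Nr4a1-labelled against GFP islets was 1.65 ± 0.60 (adjusted p = 0.103), and it passed without the array that stood apart (adjusted p = 0.0329). Of 30 genes of glucose, pyruvate and lactate handling, 2 rose and 2 fell in Nr4a1-labelled islets against GFP (median 0.02). That total of 4 became 10, with 7 higher and 3 lower, without the Nr4a3-labelled array that stood apart, and 2 without replicate 1 of the Nr4a1-labelled arrays. Ldhb, the other lactate dehydrogenase subunit, had 9.16, 8.73, 8.82, 9.14 and 8.61 on Nr4a1-labelled arrays, against 8.44, 8.43, 8.04, 8.65 and 7.98 on GFP arrays. It rose by 0.58 ± 0.13 log2 units (adjusted p = 0.0075), with 4 of 5 Nr4a1-labelled arrays above every GFP array. Mpc2, a subunit of the mitochondrial pyruvate carrier, rose by 0.47 (adjusted p = 0.000943), with groups that did not overlap. Pklr, the pyruvate kinase of liver and beta cells, fell by 0.59 (adjusted p = 0.0161), and the glucose transporter gene Slc2a2 fell by 0.56 (adjusted p = 0.0432). Pklr no longer passed without replicate 1 of the Nr4a1-labelled arrays (adjusted p = 0.0577), and Slc2a2 did not pass under 14 of 28 alternative settings (adjusted p of 0.0502 to 0.123). In Nr4a3-labelled islets 0 of the 30 passed, with 3 at an unadjusted p under 0.05. The plasma membrane lactate exporter gene Slc16a3 had a change of 0.22 ± 0.21 in Nr4a1-labelled against GFP islets (adjusted p = 0.682).

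Of 12 partners in PDGF, CXCL12 and TGF-beta signalling, 1 passed in Nr4a1-labelled against GFP islets, beside 8.71% of all genes. It was Tgfbr1, a TGF-beta receptor upstream of Smad3, which fell by 0.47 (adjusted p = 0.00649). Pdgfrb joined Tgfbr1 without the array that stood apart, for a total of 2, and the total was also 2 without replicate 5 of the GFP arrays. Over all alternatives the total ran from 1 to 5. None of the 12 passed in Nr4a3-labelled islets, with 3 at an unadjusted p under 0.05, beside 1.93% and 12.8% of all genes.

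Loss of beta cell genes is the other side of dedifferentiation. Of 17 measured beta cell identity genes, 5 fell and 0 rose in Nr4a1-labelled against GFP islets, with a median change of -0.37 log2 units. Over all genes 2.55% passed as lower and 6.16% as higher there, and 0.176% and 1.75% in Nr4a3-labelled against GFP islets. Gipr, the receptor for the incretin GIP, had 8.39, 8.57, 8.61, 9.06 and 8.77 on Nr4a1-labelled and 8.75, 8.53, 8.85, 8.82 and 9.03 on Nr4a3-labelled arrays, against 9.59, 9.41, 9.48, 9.58 and 9.12 on GFP arrays. It fell by 0.76 in Nr4a1-labelled islets (adjusted p = 0.00032) and by 0.64 in Nr4a3-labelled islets (adjusted p = 0.00563), with no overlap in either comparison. The transcription factor gene Pdx1 had 8.96, 9.69, 9.65, 9.48 and 9.32 on Nr4a1-labelled arrays, against 10.15, 10.08, 10.31, 9.91 and 10.10 on GFP arrays, a fall of 0.69 (adjusted p = 0.00141). The transcription factor gene Nkx6-1 fell by 0.42 (adjusted p = 0.0296), the potassium channel gene Kcnj11 fell by 0.57 (adjusted p = 0.00141), and Slc2a2, given above, was the fifth. The hormone genes on this list did not pass. On Nr4a1-labelled and GFP arrays Ins1 averaged 14.96 and 14.96, Ins2 14.71 and 14.72, and Iapp 14.42 and 14.43. Whether such bright probe sets can show a change was not tested. The count of 5 became 8 without the Nr4a3-labelled array that stood apart, and 3 without replicate 1 or 5 of the Nr4a1-labelled arrays or replicate 1, 3 or 5 of the GFP arrays, where Nkx6-1 had adjusted p-values of 0.0593 to 0.104. In Nr4a3-labelled islets Gipr was the 1 gene of 17 that passed (2 without replicate 1 of the Nr4a1-labelled arrays), and the list's median was -0.35, or -0.14 without the array that stood apart. The acinar genes rose and the Gapdh 3′ minus 5′ signal was lower on the same Nr4a1-labelled arrays, and whether either bears on these falls was not tested.

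None of the progenitor and dedifferentiation genes passed as higher, beside 6.16% of all genes in Nr4a1-labelled and 1.75% in Nr4a3-labelled islets against GFP. The shares of all genes that passed as lower were 2.55% and 0.176%. In Nr4a3-labelled against GFP islets 12.8% of all genes had an unadjusted p under 0.05. Of 13 measured, 0 rose and 1 fell in Nr4a1-labelled islets against GFP (median -0.09), and 0 rose and 0 fell in Nr4a3-labelled islets (median -0.04), with none at an unadjusted p under 0.05. The gene that fell was Mycl, a MYC family member, by 0.68 (adjusted p = 0.00192), and a total of 2 passed without the array that stood apart or without replicate 2 of the untreated arrays. Over all alternatives the total ran from 1 to 3. Neurog3, the transcription factor of endocrine progenitors, had a change of -0.06 in Nr4a1-labelled and 0.23 in Nr4a3-labelled islets, and Aldh1a3, a retinaldehyde dehydrogenase used as a marker of dedifferentiated beta cells, of -0.02 and 0.08. Without the array that stood apart, the changes in Nr4a3-labelled islets were -0.04 for Neurog3 and -0.02 for Aldh1a3. Neurog3 and Aldh1a3 were picked after their values were seen. No list gene passed in GFP against untreated islets. There Aldh1a3 had a change of -0.34 (limma unadjusted p = 0.00833, adjusted p = 0.9997), with groups that did not overlap. Over all genes, 2.90% had an unadjusted p under 0.05 in that comparison and 0.605% had groups that did not overlap. Neurog3 had a change of -0.01.

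**Figure D4:**
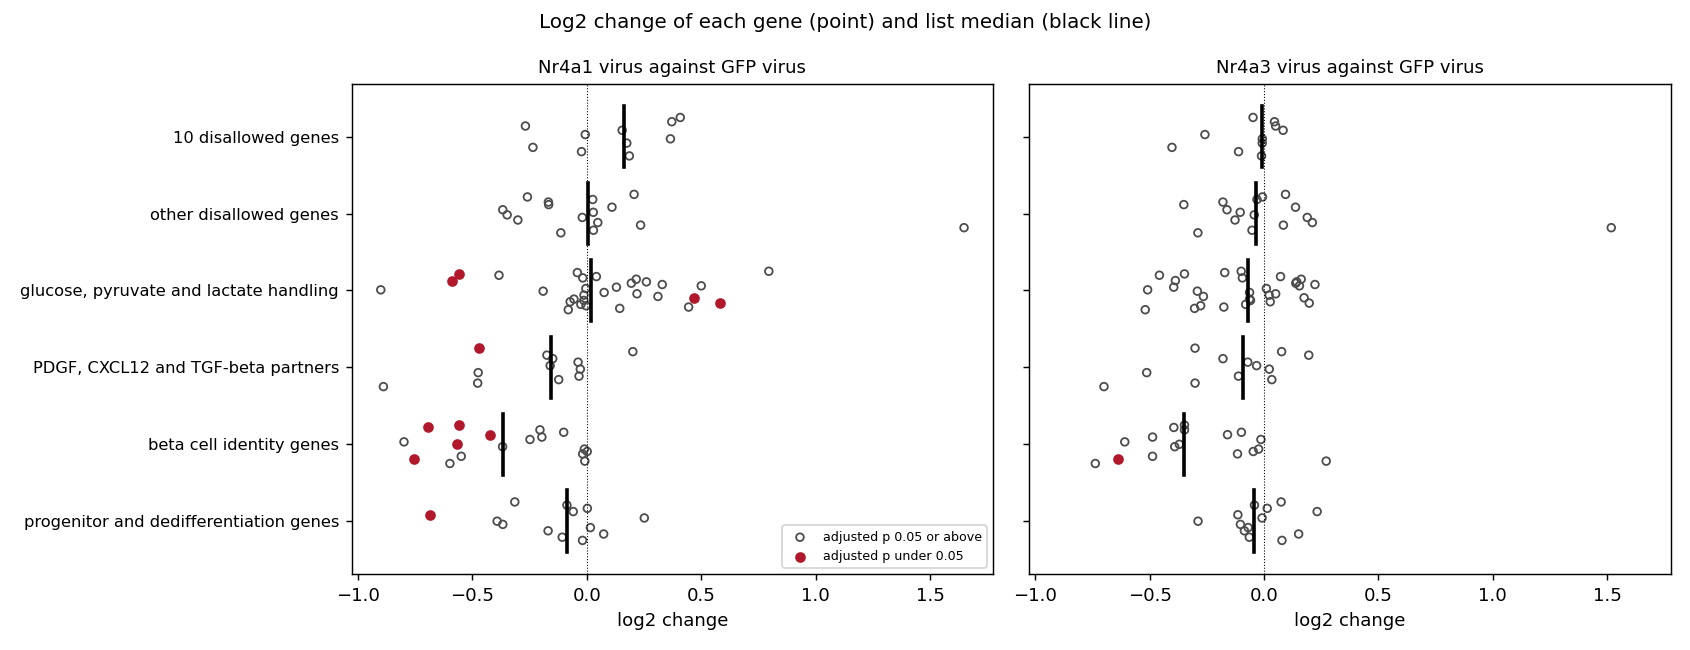
Log2 changes of the genes of each list in Nr4a1-labelled and Nr4a3-labelled islets against GFP islets, 1 point per gene, with filled red points for genes that passed and black lines for medians. Among the lists drawn, the beta cell identity genes lie mostly below 0, while the disallowed genes lie on both sides of it with none filled.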

How the data were processed

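Total RNA of 20 islet samples was measured on 1 array each. The deposited probe set intensities were made by the authors with RMA (background correction, quantile normalization and probe summary), per the submitters' processing notes, with no RMA version given in the sources used here. Their scale is linear, where a log scale had been assumed in choosing the test, and log2 was taken with no further scaling. Array medians were 98.9 to 103 intensity units. Scan dates, batches and detection calls were not used here, and the number of arrays limits the precision.

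Of 31099 probe sets, 20832 had 1 gene symbol in the array's annotation, 436 several and 9831 none. The brightest probe set per gene by its mean over all arrays gave 14217 genes. For every gene, limma 3.58.1 (R 4.3.3) estimated the mean of each group from the 20 arrays together (lmFit and eBayes, two-sided moderated tests, 16 residual degrees of freedom), with Benjamini-Hochberg adjustment over all genes of a comparison. All adjusted p-values of a change are from this limma fit, a gene passed under 0.05, and the procedure was tested on simulated data. Changes are log2 differences, the first-named group minus the second.

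The 10 members, 11 gene lists and the tests were chosen with earlier results of these data known. The genes named were all members, the 2 non-members most correlated with each, close relatives of members, and, from each list described, the 4 or fewer passing genes of lowest adjusted p. Cd302, Neurog3, Aldh1a3, and the genes that came first without the array that stood apart, were named outside this rule after their values were seen. The relative Hk3 was not analysed here. Whether the replicate numbers pair the samples is not stated, and the main fit used no pairing. Of 30 pairs of same-numbered arrays, 7 correlated over 0.1 in their deviations from the group means (range -0.30 to 0.50). Arrays of different numbers were not compared in this way, so these values do not settle it. A fit with the replicate number as a block is given below. Positions and promoters are RefSeq's on GRCr8. Alternatives were 8 other settings and leaving out each of 20 arrays.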

Additional observations from a re-analysis of the deposited data

Results flagged for a closer look

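In untreated islets, Slc16a1 stood at 7.713 log2 intensity on replicate 2, against 7.055 to 7.225 on the other untreated arrays. The gap to the nearest of them was 0.742 of the group's range. In Nr4a3-labelled islets, Ndrg2 stood at 5.879 on replicate 2, the array that stood apart, against 6.628 to 6.871 on the others, a gap of 0.755 of the range. The limit for 5 samples is 0.71. These were 2 of 40 groups tested, and chance marks about 1 in 20.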

How the results depend on the processing

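The count of members that passed was 0 in each of 4 comparisons under all 28 alternatives, by limma throughout. Of 1116 member values under the alternatives, 0 passed and 69 changed sign, none of them a change that had passed. The lowest adjusted p of a member was 0.0714, for Hk2 in Nr4a1-labelled against GFP islets with array weights. With the 10 arrays of that comparison alone, 4 of 10 members had an unadjusted p under 0.05, against 0 in the fit of all 20. The share of all genes at that level in this setting is not given here. After adjustment, 2853 of 14217 genes passed there, against 1239 in the fit of all 20, so more of all genes passed too. With the replicate block, 0 members passed in any comparison, at lowest adjusted p-values of 0.261, 0.232, 0.420 and 0.9998, and all genes that passed numbered 1088, 204, 70 and 0, against 1239, 274, 90 and 0 without it. The block moved no count of all genes by over 1.5 times. With array weights the numbers were 3576, 1027, 274 and 0, and with only the arrays compared 2853, 122, 1 and 0. Leaving out 1 array gave 742 to 2714, 127 to 527, 43 to 133 and 0 to 0. Counts for the other gene lists under these settings were added after seeing the data: in Nr4a1-labelled against GFP islets they ran from 3 to 10 for beta cell identity, 2 to 11 for glucose handling, 14 to 20 for acinar, 1 to 5 for duct, 4 to 11 for endothelial, 0 to 2 for other islet hormone and 0 to 2 for other disallowed genes. They ran from 1 to 5 for the signalling partners, 0 to 4 for stellate and 1 to 3 for progenitor genes, and stayed at 0 for leukocyte genes. With the replicate block the duct count was 3 and the progenitor count 2, against 1 each without it, and the acinar count in Nr4a3-labelled against GFP islets was 0, against 1. Hk2 was left out with the dimmest 25% of genes. The cause of these shifts was not tested.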
